A study of Mus musculus with 9 samples.

Results

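Insulin acts on fat and muscle through a short chain of proteins, and the transcripts of 9 genes of that chain were followed in 3 mouse tissues: brown fat, white fat and the soleus muscle. The genes were Insr, Irs1, Irs2, Irs3, Pik3r1, Pik3ca, Pdpk1, Akt1 and Akt2. They were chosen by name, as the rows of the expression matrix whose RefSeq accessions map to these symbols, and all 9 were found among the 17753 genes of the matrix. Each tissue had 3 libraries, 9 in all, from male C57BL/6J mice, wild type and 3 months old, with no treatment stated. Brown fat is the heat-producing form of adipose tissue, white fat is the lipid store, and the soleus is a slow-fibred calf muscle used to hold posture. The labels count 3 mice and do not say which libraries share a mouse, so p-values measure the spread between these samples, which may in part be technical. The sources used here do not give the fat depots sampled. Levels are in FPKM, in which fragments are scaled by transcript length and by all mapped fragments of a library, so that levels of different genes can be set side by side.

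The insulin receptor is a tyrosine kinase at the cell surface that, once insulin binds, phosphorylates docking proteins called insulin receptor substrates. These recruit phosphatidylinositol 3-kinase (PI3K), whose lipid product brings the kinases PDPK1 and AKT together at the membrane, where PDPK1 activates AKT. In fat and muscle AKT then sends the glucose transporter GLUT4 to the surface, restrains lipolysis in fat and promotes glycogen and protein synthesis. Transcript levels say how much message for each step is present, not how much of the protein is phosphorylated.

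The libraries carried the markers of their labelled tissues. The summed FPKM of 6 brown adipocyte markers was 11723 to 13067 in brown fat, 38.6 to 177 in white fat and 4269 to 5641 in soleus, where Cox8b, a respiratory chain subunit that muscle also uses, is part of the list. The sum of 5 white adipocyte markers was 118 to 153 in brown fat, 4551 to 5822 in white fat and 27.8 to 158 in soleus. Markers of slow muscle fibres, 3 of 5 measured, summed to 2.36 to 4.88 FPKM in brown fat, 0.0651 to 0.649 FPKM in white fat and 18647 to 22365 FPKM in soleus. Markers of fast muscle fibres, 4 of 5 measured, summed to 25.5 to 192 FPKM in brown fat and 1.61 to 3.41 FPKM in white fat. In soleus they summed to 25149 to 30491 FPKM, so soleus carried markers of both fibre types. Macrophage markers, 5 of 7 measured, summed to 32 to 38.2 FPKM in brown fat, 323 to 410 FPKM in white fat and 22.8 to 31.1 FPKM in soleus. The 4 fibroblast markers summed to 159 to 177 FPKM in brown fat, 904 to 1056 FPKM in white fat and 279 to 397 FPKM in soleus, and the 6 endothelial markers to 96.2 to 99 FPKM, 44.3 to 68.6 FPKM and 47.3 to 52.3 FPKM. Mesothelial markers, 4 of 5 measured, summed to 1.19 to 1.42 FPKM in brown fat, where Wt1 was at 0 throughout, to 58.1 to 88.5 FPKM in white fat and to 0.245 to 1.87 FPKM in soleus. Read totals were not given. Relative depth, read from the steps between the lowest values, ran from 1 for white fat replicate 2 to 3.58 for white fat replicate 3.

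All 9 genes were among the 9913 genes that reached 1 FPKM in at least 3 libraries and were tested with limma on log2(FPKM + 1), and Irs3 did so through the fat libraries alone. Akt2 and Pik3r1 differed between the 2 fat tissues most, and in opposite directions: Akt2 was higher and Pik3r1 lower in brown fat. Against soleus the widest difference was in Irs3, which was near the limit of measurement in muscle. On the deposited values, Irs1, Irs2 and Akt1 passed the test in none of the 3 comparisons. Between brown and white fat, 2 of the 9 genes were higher in brown fat (Insr and Akt2), 1 was lower (Pik3r1) and 6 did not pass, a share of 33.3% called where 72.8% of all tested genes were. Rescaling each library to the same sum (TPM) gave 1 higher and 5 lower, where it called 80% of all genes. Relative to soleus, brown fat had 5 genes higher (Insr, Irs3, Pik3r1, Pdpk1 and Akt2), 1 lower (Pik3ca) and 3 that did not pass, which is 66.7% called where 78.5% of all genes were. With each library scaled by the median of its gene ratios to the mean of all libraries, that split was 3 higher and 3 lower, where 77% of all genes were called. In white fat against soleus, 5 genes were higher (Insr, Irs3, Pik3r1, Pdpk1 and Akt2), 0 were lower by limma (also 0 at an unadjusted p under 0.05) and 4 did not pass, or 55.6% called against 84.2% of all genes, with 7 higher and 0 lower under TPM and 2 higher and 3 lower under median of ratios scaling, where 88.8% and 84.3% of all genes were called. On the deposited values the share of these genes that passed was below the share of all genes in each comparison. In brown fat against soleus this turned under upper quartile scaling, with 8 of the 9 genes called where 76.8% of all genes were. Without brown fat replicate 1 and without soleus replicate 3 it turned only by a narrow margin. In these fits 7 of the 9 were called each time, close to the 76% and 75.6% of all genes.

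**Figure D1:**
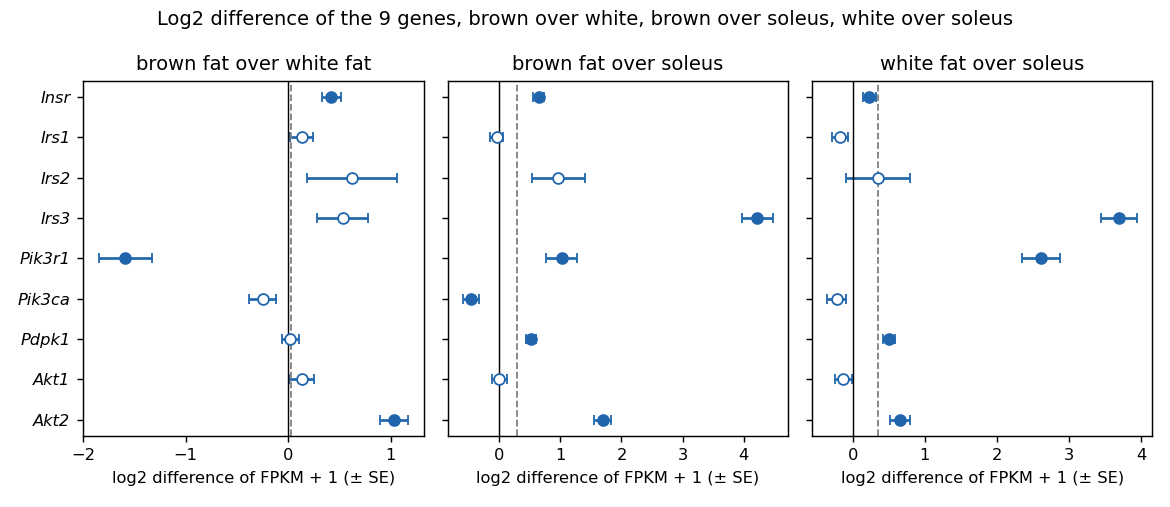
Log2 difference of FPKM + 1 of the 9 genes, with brown fat over white fat at left, brown fat over soleus in the middle and white fat over soleus at right. Points are fitted differences with their SE from 3 libraries a tissue, filled where the adjusted p was under 0.05, and the dashed line is the median of all tested genes (0.03, 0.29 and 0.35). Pik3r1 lies farthest left and Akt2 farthest right in the comparison of the fats, and Irs3 farthest right in both comparisons with soleus.

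The differences of these genes were close to those of other genes in size, or smaller. The median absolute log2 difference of the 9 genes was 0.42 in brown over white fat, 0.65 in brown fat over soleus and 0.35 in white fat over soleus. The same quantity over all tested genes was 0.48, 0.64 and 0.80. The libraries of brown and white fat did not overlap for 5 of the 9 genes (55.6%), where 77.4% of all genes were separated in this way. For brown fat and soleus 6 genes (66.7%) were separated, against 81.1% of all genes, and for white fat and soleus 4 (44.4%), against 85.6%.

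**Figure D2:**
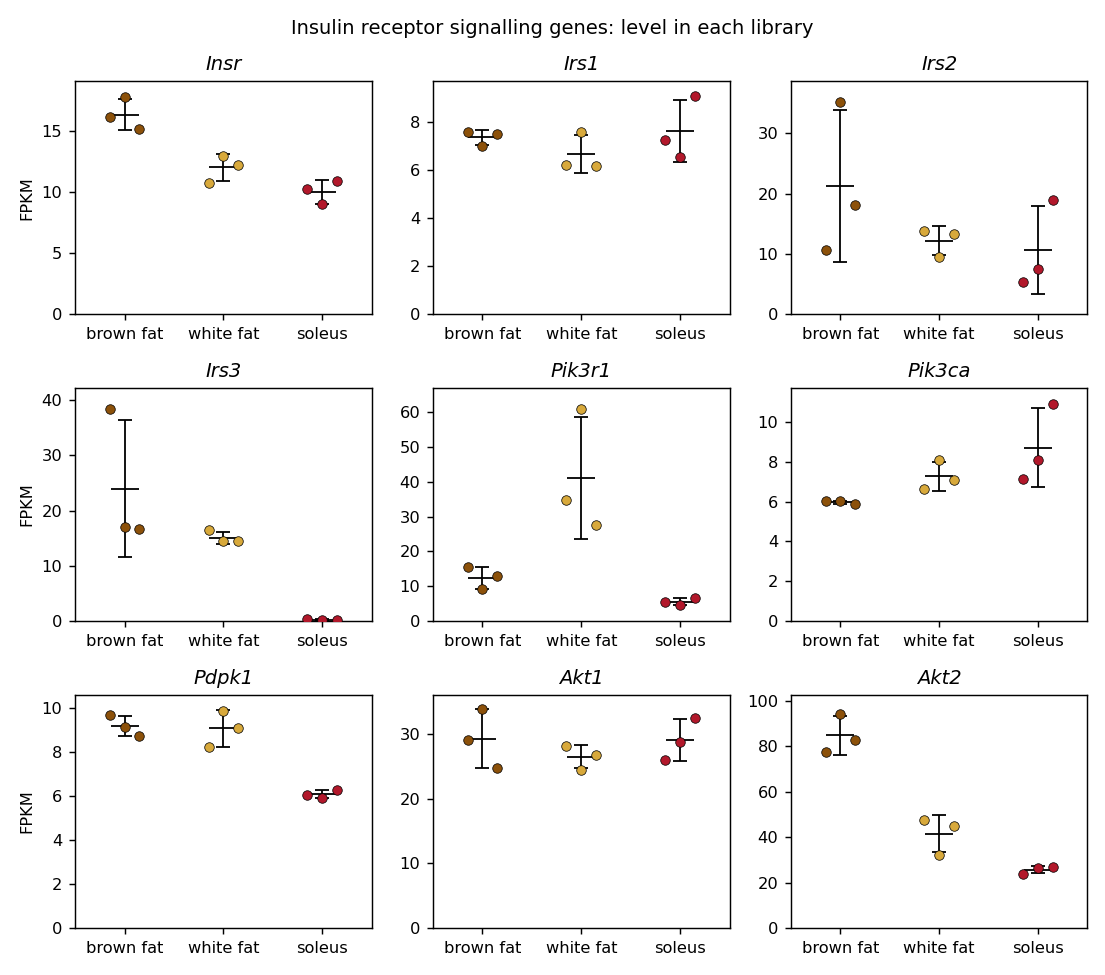
FPKM of each of the 9 genes in each library (points, replicates 1 to 3 from left to right), with the mean and SD of each tissue (bars, n = 3), for brown fat, white fat and soleus. Akt2 steps down across the 3 tissues without overlap, Pik3r1 stands out in white fat, Irs3 is near 0 in soleus, and the points of Akt1 and of Irs1 overlap across all 3.

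Insr encodes the insulin receptor itself. Its level was 16.1, 17.7 and 15.1 FPKM in brown fat, 10.7, 12.9 and 12.2 FPKM in white fat, and 10.2, 8.99 and 10.9 FPKM in soleus. The 3 brown fat libraries lay above all others, while white fat and soleus overlapped at their edges. In bulk tissue, more cells of a type and more RNA per cell cannot be told apart, here or in any later difference. Brown fat exceeded white fat by a log2 difference of 0.42 ± 0.09 (SE; limma adjusted p = 0.0023), but the value was -0.14 under TPM, which moved the median of all genes to -0.50. Set against that median, Insr was higher in brown fat by 0.39 on the deposited values and by 0.36 under TPM. Brown fat exceeded soleus by 0.65 ± 0.09 (limma adjusted p = 8.3e-05). White fat was called higher than soleus by 0.23 ± 0.09 (limma adjusted p = 0.042), with a value of -0.17 under median of ratios scaling and -0.0021 under quantile normalization. That call was lost without white fat replicate 2 or 3, soleus replicate 1 or 2 or brown fat replicate 1, with limma adjusted p-values of 0.14, 0.11, 0.064, 0.16 and 0.051, and the adjusted p ran from 1.2e-04 to 0.98 over all 21 alternatives.

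The insulin receptor shares its family with the IGF1 receptor, encoded by Igf1r, with which it forms hybrids. Igf1r was at 0.901, 0.857 and 0.937 FPKM in brown fat, 1.47, 1.18 and 1.76 FPKM in white fat, and 1.18, 1.28 and 1.23 FPKM in soleus. All 9 libraries thus held far more message for the insulin receptor than for its relative. The ratio of Insr to Igf1r in a library, which no scaling of that library can change, was 17.9, 20.6 and 16.1 in the brown fat libraries, 7.3, 11 and 6.93 in the white fat libraries, and 8.63, 7.04 and 8.86 in the soleus libraries. Brown fat stood above both other tissues without overlap. The ratio differed across the 3 tissues in an exact permutation test over the 9 libraries (p = 0.036, Benjamini-Hochberg adjusted over 5 ratios 0.045). It asks for any difference among the 3 tissues and does not single out brown fat. Without brown fat replicate 2 the adjusted p of this exact permutation test was 0.054. The matrix held 2 rows of Igf1r, which were summed.

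Of the 3 insulin receptor substrates, only Irs3 passed the test on the deposited values, in both comparisons with soleus. Irs1, the main docking protein of insulin signalling in muscle, was at 7.6, 7.02 and 7.5 FPKM in brown fat, 6.24, 7.59 and 6.19 FPKM in white fat, and 7.26, 6.57 and 9.1 FPKM in soleus. The tissues overlapped in all 3 comparisons. The log2 difference was 0.13 ± 0.11 in brown over white fat, -0.04 ± 0.11 in brown fat over soleus and -0.17 ± 0.11 in white fat over soleus (SE; limma adjusted p = 0.31, 0.78 and 0.18), and the first and last of these had the opposite sign under TPM, at -0.42 and 0.35. Relative to the median of all genes, Irs1 in white fat over soleus was -0.51 on the deposited values and -0.58 under TPM. All 3 comparisons leaned on the scaling. Both values under TPM passed the test (limma adjusted p = 0.022 and 0.043). Under upper quartile, median of ratios and quantile scaling, brown fat over soleus passed at -0.34, -0.43 and -0.35 (limma adjusted p = 0.022, 0.0037 and 0.012), and white fat over soleus at -0.37, -0.55 and -0.48 (limma adjusted p = 0.013, 6.6e-04 and 0.0019).

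Irs2, the substrate that carries much of insulin's action in liver and beta cells and that fasting induces in liver, was at 10.6, 35.2 and 18.1 FPKM in brown fat, 13.8, 9.49 and 13.3 FPKM in white fat, and 5.31, 7.54 and 18.9 FPKM in soleus. The highest and the lowest library differed 3.33-fold within brown fat and 3.56-fold within soleus, and the tissues overlapped. Brown over white fat was 0.62 ± 0.44 and white fat over soleus 0.35 ± 0.44 on the log2 scale (SE; limma adjusted p = 0.23 and 0.48). Brown fat over soleus was 0.97 ± 0.44 (limma adjusted p = 0.068), and it passed without brown fat replicate 1 (1.36, limma adjusted p = 0.015) or without soleus replicate 3 (1.45, limma adjusted p = 0.0075). Without brown fat replicate 2 it was 0.54, and without soleus replicate 1 it was 0.62. The ratio of Irs1 to Irs2 in a library had geometric means of 0.39 for brown fat, 0.552 for white fat and 0.831 for soleus, and the exact permutation test across tissues gave p = 0.26.

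Irs3 encodes a short substrate that rodent adipocytes use and that humans lack as a working gene. It was at 38.3, 17.1 and 16.6 FPKM in brown fat, 16.4, 14.5 and 14.5 FPKM in white fat, and 0.429, 0.149 and 0.186 FPKM in soleus. Both fats stood far above muscle, brown fat lay above white fat by a narrow margin without overlap, and brown fat replicate 1 stood apart from the other brown fat libraries. Irs3 was higher than in soleus by 4.22 ± 0.25 in brown fat and by 3.69 ± 0.25 in white fat (log2 ± SE; limma adjusted p = 5.6e-08 and 1.3e-07), calls that held in all 21 alternatives, and these differences understate the fold because soleus lies below the 1 FPKM that was added. Irs3 entered the test through the fat libraries alone. With no filter on low values, brown fat over soleus was 4.22 (limma adjusted p = 2.1e-06). The 4 markers of adipocytes in general that were measured summed to 147, 58 and 28.4 FPKM in soleus replicates 1, 2 and 3, and to 2084 to 2397 in brown fat and 4718 to 5223 in white fat. Soleus replicate 1 was thus highest in both Irs3 and adipocyte markers, and the part of fat cells in the soleus level was not tested. Brown over white fat was 0.53 ± 0.25 (limma adjusted p = 0.084), with a value of -0.04 under TPM and one of 0.15 without brown fat replicate 1. It passed without brown fat replicate 2 or 3, at limma adjusted p = 0.037 and 0.033.

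As shares of the summed FPKM of the 3 substrates, Irs3 made up 45.3% ± 20.2 for brown fat, 44.5% ± 1.69 for white fat and 1.67% ± 1.42 for soleus (SD, n = 3 each). Irs2 made up 40.3% ± 20.4, 35.7% ± 4.91 and 53.6% ± 13.1 in the same tissues, and Irs1 14.4% ± 3.09, 19.8% ± 3.72 and 44.7% ± 11.9. Soleus therefore held Irs1 and Irs2 almost alone, and fat held all 3. The sum itself was 52.7 ± 9.23 FPKM in brown fat, 34 ± 2.43 FPKM in white fat and 18.5 ± 8.44 FPKM in soleus. The ratio of Irs3 to Irs1 was 5.04, 2.44 and 2.21 in the brown fat libraries, 2.63, 1.91 and 2.35 in the white fat libraries, and 0.059, 0.0227 and 0.0204 in the soleus libraries, which put every fat library above every soleus library (exact permutation test across tissues p = 0.018, adjusted over 5 ratios 0.03).

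**Figure D3:**
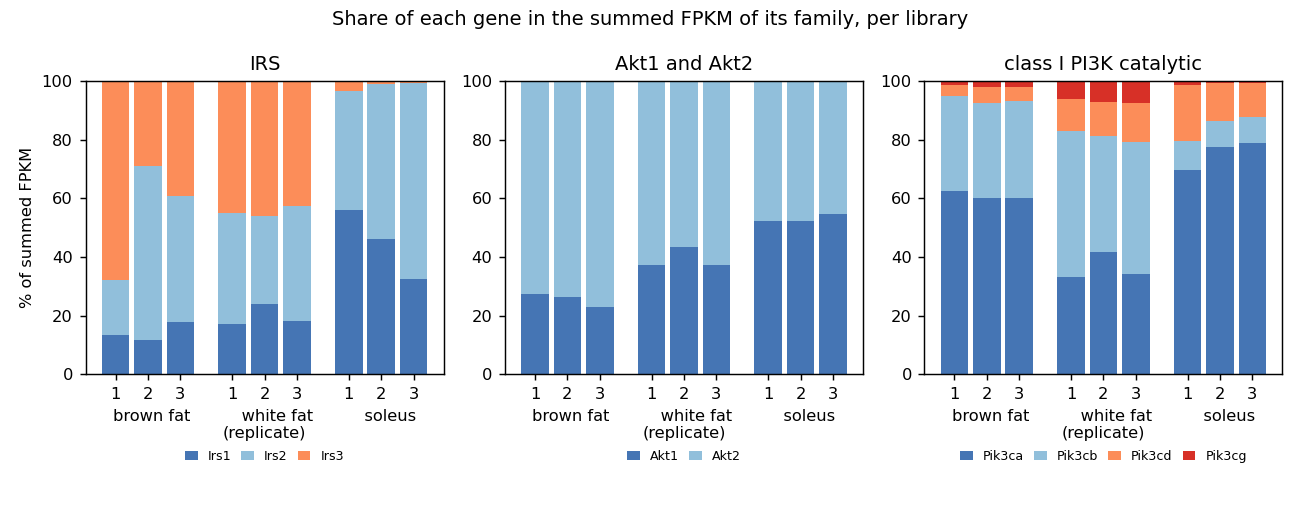
Share of each gene in the summed FPKM of its family or pair, in percent, for the insulin receptor substrates (left), Akt1 and Akt2 (middle) and the class I PI3K catalytic subunits (right). Each bar is 1 library, with brown fat, white fat and soleus in that order and replicates 1 to 3 within each. Irs3 is all but missing from soleus, the mean Akt2 share of the pair is 74.4% for brown fat, 60.7% for white fat and 46.9% for soleus, and Pik3cb takes its largest share in white fat.

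The windows at the start sites of the 3 substrate genes are printed because Irs3 alone of these relatives passed the test on the deposited values. They hold 250 bases before the start site and 50 from it on, as the RefSeq promoter table on GRCm38.p6 gives them, all on the minus strand of the genome and written 5′ to 3′ in the direction of transcription: chr1:82291390-82291689 for Irs1, chr8:11008880-11009179 for Irs2 and chr5:137645665-137645964 for Irs3. Capitals mark matches to any of 7 short motifs on either strand.
Irs1: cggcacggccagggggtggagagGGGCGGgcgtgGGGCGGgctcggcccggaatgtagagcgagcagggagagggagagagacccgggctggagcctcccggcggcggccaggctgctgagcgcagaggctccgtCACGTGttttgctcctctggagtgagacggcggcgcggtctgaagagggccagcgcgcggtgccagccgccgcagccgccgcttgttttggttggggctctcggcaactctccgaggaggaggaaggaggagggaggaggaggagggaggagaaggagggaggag
Irs2: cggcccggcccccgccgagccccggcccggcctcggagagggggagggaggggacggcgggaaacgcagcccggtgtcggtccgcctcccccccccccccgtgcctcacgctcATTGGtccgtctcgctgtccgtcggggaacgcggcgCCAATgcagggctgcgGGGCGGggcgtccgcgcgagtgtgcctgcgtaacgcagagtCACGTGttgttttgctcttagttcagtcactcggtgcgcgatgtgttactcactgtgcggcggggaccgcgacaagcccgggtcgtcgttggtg
Irs3: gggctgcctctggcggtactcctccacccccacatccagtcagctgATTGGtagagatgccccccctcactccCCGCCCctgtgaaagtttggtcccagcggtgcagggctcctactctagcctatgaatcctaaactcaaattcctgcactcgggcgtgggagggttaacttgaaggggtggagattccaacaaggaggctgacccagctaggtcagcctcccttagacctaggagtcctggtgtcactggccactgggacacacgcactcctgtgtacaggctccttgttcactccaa
The Irs1 and Irs2 windows were rich in G and C, at 71.3% and 72%, with 28 and 41 CG pairs, while the Irs3 window had 58.3% and 6 CG pairs. The medians of all 32851 windows in the table were 52.7% and 7 pairs. Irs1 and Irs2 each held an E-box (CACGTG), at -115 and -44 from the start site, a motif in 7.15% of all windows, and Irs3 held none. A GC box (GGGCGG, in 35.7% of windows) occurred 2 times in Irs1 and 1 time each in Irs2 and Irs3, and the CCAAT box (CCAAT, in 37.4%) occurred 2 times in Irs2 and 1 time in Irs3. The FoxO motif GTAAACA (3.65% of windows), the cAMP response element TGACGTCA (1.79%), the TATA box TATAAA (13.6%) and the direct repeat of nuclear receptor sites with 1 base between (0.0396%) had no match in these windows. These matches describe letters in a window and are not shown to be bound. No window of Insr was used here.

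Pik3r1, the main regulatory subunit of PI3K, which docks the enzyme on the substrates and also holds it in check, set white fat apart. It was at 15.5, 9.15 and 12.9 FPKM in brown fat, 34.8, 61 and 27.6 FPKM in white fat, and 5.52, 4.57 and 6.72 FPKM in soleus. The tissues did not overlap in any of the 3 comparisons, and white fat replicate 2 was the highest library of all. Brown fat was lower than white fat (log2 difference -1.59 ± 0.26) and higher than soleus by 1.02 ± 0.26, and white fat was higher than soleus by 2.61 ± 0.26 (log2 ± SE; limma adjusted p = 2.7e-04, 0.0045 and 3.3e-06). Both differences that involve white fat were called in all 21 alternatives, and the first was -1.27 without white fat replicate 2. Brown fat over soleus was 0.63 under median of ratios scaling and 0.66 under quantile normalization, with limma adjusted p-values of 0.054 and 0.059. Macrophage markers summed to 355, 323 and 410 FPKM in white fat replicates 1, 2 and 3 and endothelial markers to 44.3, 68.6 and 57.8. White fat replicate 2, the highest in Pik3r1, was thus the lowest of the 3 in macrophage markers and the highest in endothelial ones, and the part of other cell types in the Pik3r1 level was not tested.

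Pik3ca encodes the catalytic subunit of PI3K that insulin signalling chiefly uses. Its level was 6.01, 6.01 and 5.86 FPKM in brown fat, 6.64, 8.07 and 7.1 FPKM in white fat, and 7.11, 8.1 and 10.9 FPKM in soleus. Brown fat lay below every library of the other tissues, and white fat and soleus overlapped. Brown fat was lower than soleus (log2 difference -0.46 ± 0.13, SE; limma adjusted p = 0.0062), a call that held in all 21 alternatives. Brown over white fat was -0.25 ± 0.13 (limma adjusted p = 0.1) and passed in 4 alternatives. These were TPM (-0.84, limma adjusted p = 3.8e-04), upper quartile scaling (-0.34, 0.03), and the fits without soleus replicate 3 and without soleus altogether (-0.25 and 0.021 in both). White fat over soleus was -0.22 ± 0.13 (limma adjusted p = 0.13), with a value of 0.30 under TPM (limma adjusted p = 0.075). It passed under upper quartile, median of ratios and quantile scaling, at -0.42, -0.60 and -0.51 (limma adjusted p = 0.0092, 7.4e-04 and 0.0021), and without soleus replicate 1 (-0.34, limma adjusted p = 0.025).

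Within the pair of Pik3r1 and Pik3ca, the balance of regulatory to catalytic message separated the 3 tissues. Other subunits were not part of this ratio, and Pik3r2, another regulatory subunit, was not found in the matrix. The ratio of Pik3r1 to Pik3ca was 2.58, 1.52 and 2.21 in the brown fat libraries, 5.25, 7.56 and 3.89 in the white fat libraries, and 0.777, 0.565 and 0.615 in the soleus libraries. No tissue overlapped another, with the regulatory subunit in excess in every fat library and below the catalytic one in every soleus library. The exact permutation test across tissues gave p = 0.0036, the smallest that its 1680 arrangements allow (adjusted over 5 ratios 0.0089). Among the 4 class I catalytic subunits, Pik3ca made up 60.9% ± 1.34 of the summed FPKM for brown fat, 36.3% ± 4.69 for white fat and 75.3% ± 4.96 for soleus (SD, n = 3 each). Pik3cb, a catalytic subunit that G protein-coupled receptors also engage, made up 32.7% ± 0.466, 45% ± 5.22 and 9.43% ± 0.58 in the same tissues. In white fat its level exceeded that of Pik3ca in replicates 1 and 3 but not in replicate 2.

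Pdpk1, the kinase that phosphorylates the activation loop of AKT, had the smallest spread between replicates of the 9 genes. It was at 9.68, 9.16 and 8.73 FPKM in brown fat, 8.22, 9.89 and 9.12 FPKM in white fat, and 6.05, 5.93 and 6.29 FPKM in soleus. Both fats lay above soleus without overlap and overlapped each other. Brown over white fat was 0.02 ± 0.08 (log2 ± SE; limma adjusted p = 0.84), with values of -0.55 under TPM (limma adjusted p = 7.2e-04), -0.09 under upper quartile scaling and -0.05 under quantile normalization. Brown fat was higher than soleus by 0.52 ± 0.08 and white fat by 0.50 ± 0.08 (limma adjusted p = 8.6e-05 and 9.7e-05). Under median of ratios scaling these were 0.13 and 0.12 and no longer passed (limma adjusted p = 0.13 and 0.14), and under quantile normalization the first did not pass either (0.17, limma adjusted p = 0.069). Relative to the median of all genes, Pdpk1 was 0.23 higher in brown fat than in soleus and 0.16 higher in white fat.

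Akt1 and Akt2 encode the 2 AKT kinases of most tissues, of which AKT2 is the form tied to glucose uptake and AKT1 to growth. Akt1 was at 29.1, 33.9 and 24.8 FPKM in brown fat, 28.1, 24.5 and 26.7 FPKM in white fat, and 26, 28.8 and 32.5 FPKM in soleus. The 3 tissues overlapped throughout. The log2 difference was 0.13 ± 0.12 in brown over white fat, 0.0013 ± 0.12 in brown fat over soleus and -0.13 ± 0.12 in white fat over soleus (SE; limma adjusted p = 0.34, 0.99 and 0.32). These signs hung on the scaling: the first was -0.45 under TPM and -0.06 under quantile normalization, the next -0.03 under TPM, -0.33 under upper quartile, -0.43 under median of ratios and -0.31 under quantile scaling, and the last 0.42 under TPM. Under TPM, the values for brown over white fat and white fat over soleus passed the test (limma adjusted p = 0.0024 and 0.0031). Under upper quartile, median of ratios and quantile scaling, brown fat over soleus passed (limma adjusted p = 0.0099, 0.0033 and 0.012), and so did white fat over soleus, at -0.35, -0.55 and -0.25 (limma adjusted p = 0.0063, 5.7e-04 and 0.03). Relative to the median of all genes, Akt1 was -0.29 in brown fat over soleus and -0.48 in white fat over soleus on the deposited values, and its values against soleus stayed negative under the 4 other scalings.

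Akt2 had the highest level of the 9 genes in both fats. It was at 77.4, 94.4 and 83 FPKM in brown fat, 47.4, 32.1 and 44.9 FPKM in white fat, and 23.8, 26.2 and 26.9 FPKM in soleus. Brown fat lay above white fat and white fat above soleus, with no overlap. Akt2 was higher in brown than in white fat by 1.03 ± 0.14 and higher in brown fat than in soleus by 1.69 ± 0.14 (log2 ± SE; limma adjusted p = 4.9e-05 and 6.6e-07). These calls held in all 21 alternatives, with values of 0.46 to 1.13 and of 1.25 to 1.75. White fat was higher than soleus by 0.66 ± 0.14 (limma adjusted p = 9.8e-04), but by 0.24 with no call under median of ratios scaling (limma adjusted p = 0.12).

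Set against its relative within each library, Akt2 kept this order. The ratio of Akt2 to Akt1 was 2.66, 2.79 and 3.34 in the brown fat libraries, 1.68, 1.31 and 1.68 in the white fat libraries, and 0.914, 0.909 and 0.826 in the soleus libraries. Akt2 was thus in excess in every fat library and slightly below Akt1 in every soleus library, and the 3 tissues did not overlap. The exact permutation test across tissues gave p = 0.0036, the smallest possible (adjusted over 5 ratios 0.0089). The sum of Akt1 and Akt2 was 114 ± 12.3 FPKM in brown fat, 67.9 ± 9.96 FPKM in white fat and 54.7 ± 4.77 FPKM in soleus (SD, n = 3 each).

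Within a tissue, the order of the genes by mean FPKM differed. In brown fat it ran Akt2, Akt1, Irs3, Irs2, Insr, Pik3r1, Pdpk1, Irs1 and Pik3ca, and neighbours overlapped from Akt1 down to Pdpk1. In white fat it ran Akt2, Pik3r1, Akt1, Irs3, Irs2, Insr, Pdpk1, Pik3ca and Irs1, where Akt2 and Pik3r1, Pik3r1 and Akt1, Irs2 and Insr, and Pik3ca and Irs1 overlapped. In soleus it ran Akt1, Akt2, Irs2, Insr, Pik3ca, Irs1, Pdpk1, Pik3r1 and Irs3, with overlap of Akt1 and Akt2, of each neighbour from Irs2 to Irs1, and of Pdpk1 and Pik3r1. Pik3r1 thus stood at place 6 for brown fat, 2 for white fat and 8 for soleus, and Irs3 at place 3, 4 and 9. Akt2 exceeded 94.4% of the tested genes of brown fat, 90.5% of those of white fat and 85.8% of those of soleus.

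The genes also differed in how far replicates of a tissue lay apart. The residual SD over the 9 libraries was 0.71 on the log2 scale for Irs2, 0.41 for Pik3r1 and 0.40 for Irs3, larger than that of 99.6%, 98.4% and 98.3% of the tested genes. The other 6 genes ran from 0.08 for Pdpk1 to 0.20 for Akt2, and the median of all tested genes was 0.11. In brown fat, replicate 1 was the lowest in Irs2 and the highest in Irs3 and Pik3r1, and replicate 2 was the highest in Irs2 and the lowest in Pik3r1. Some other genes moved along with these libraries and were picked after their values were seen. Foxo1, a transcription factor that AKT shuts out of the nucleus, was at 28.6, 12.1 and 17.2 FPKM in brown fat replicates 1, 2 and 3. Dio2 and Elovl3, which rise in brown fat on cold exposure, were at 72.4, 21.1 and 33.1 FPKM and at 69.7, 18.2 and 23.3 FPKM in the same libraries. Of the other brown adipocyte markers, Ppargc1a was also highest in replicate 1, at 20.8, 8.92 and 12.1 FPKM. Ucp1 was lowest there, at 3386, 4108 and 3562 FPKM. Cidea was at 2170, 2352 and 2058 FPKM and Cox8b at 6568, 6558 and 6035 FPKM. The 4 measured fast muscle fibre markers summed to 25.5, 192 and 102 FPKM in these libraries. Replicate 1 was thus highest in Foxo1, Dio2, Elovl3 and Ppargc1a and lowest in Ucp1 and muscle markers. The part of any of these in the Irs2 and Irs3 levels was not tested.

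**Figure D4:**
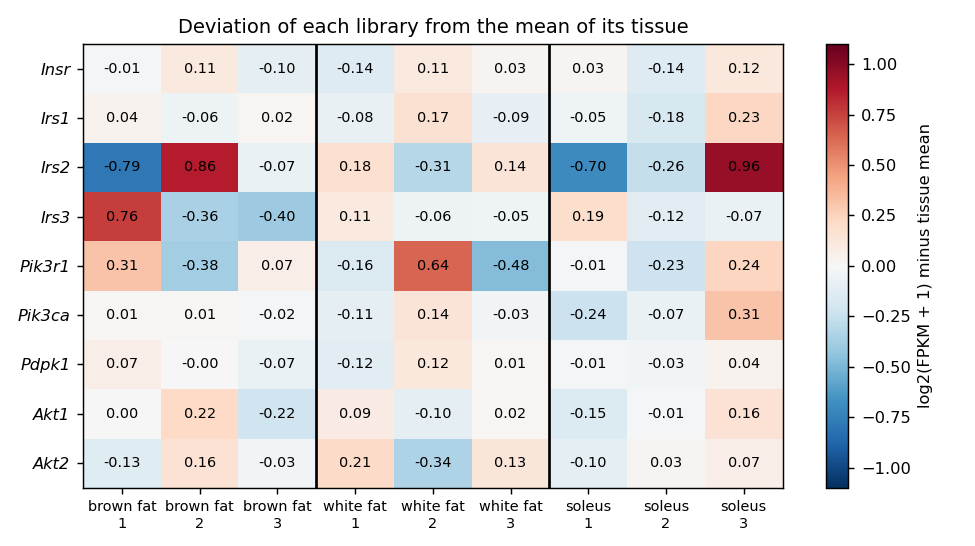
Deviation of each library (columns) from the mean of its tissue on the log2(FPKM + 1) scale for each of the 9 genes (rows), red above and blue below. The widest deviations of Irs2 are in brown fat replicates 1 and 2 (-0.79 and 0.86) and soleus replicates 1 and 3 (-0.70 and 0.96). Irs3 in brown fat replicate 1 (0.76) and Pik3r1 in white fat replicate 2 (0.64) are also among the widest.

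Around the 9 genes, 95 other genes of the pathway were grouped in 7 lists by role, of which 92 were in the matrix and 86 were tested. In brown against white fat 32 were higher, 31 lower and 23 not called. Relative to soleus, brown fat had 44 higher, 22 lower and 20 not called, and white fat had 47 higher, 26 lower and 13 not called. Over all tested genes the shares higher and lower were 38% and 34.8% between the fats, 52.9% and 25.6% for brown fat over soleus, and 54.5% and 29.7% for white fat over soleus. Some of these genes reached 1 FPKM only in the higher tissue of a comparison, so that the filter fixed their direction. There were 6 of them in brown against white fat, all 6 lower, and without them 32 were higher and 25 lower of 80. Without 2 such genes brown fat over soleus had 44 higher and 20 lower of 84, and without 8 white fat over soleus had 41 higher and 24 lower of 78. List counts lean on the scaling, as do those of all genes: under TPM 18.1% were higher and 61.9% lower between the fats, and 69.9% higher and 18.9% lower for white fat over soleus. Under median of ratios scaling 36.6% were higher and 40.4% lower for brown fat over soleus, and 42.3% and 42% for white fat over soleus. The counts of each list below are to be read beside these shares.

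Of the ligands and other receptors, 4 of 7 were tested, with 2 higher and 2 lower between the fats (1 and 2 under TPM) and 1 higher and 2 lower in each fat against soleus (2 and 1 under TPM for white fat). Igf1, a growth factor that adipose tissue and liver secrete, was at 11.2, 6.23 and 7.57 FPKM in brown fat, 69, 59.1 and 59.4 FPKM in white fat, and 4.39, 2.95 and 3.91 FPKM in soleus. It was lower in brown than in white fat (log2 difference -2.80 ± 0.18) and higher in white fat than in soleus by 3.75 ± 0.18 (log2 ± SE; limma adjusted p = 1.4e-07 and 7.0e-09). Igf2, the fetal growth factor, averaged 2.24 FPKM in brown fat, 0.761 FPKM in white fat and 4.05 FPKM in soleus, and was lower in white fat than in soleus (log2 difference -1.53; limma adjusted p = 5.3e-06). Ins1 was listed at 0 in all 9 libraries, and Ins2 in 8 of them.

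The adaptors beside the substrates, 12 tested, split into 6 higher and 6 lower in brown against white fat (38% and 34.8% of all genes). Under TPM the split was 3 and 7. Against soleus, 7 were higher and 2 lower in brown fat (52.9% and 25.6% of all genes). White fat had 8 higher and 3 lower (54.5% and 29.7% of all genes). Under median of ratios scaling the counts against soleus were 5 and 4, and 5 and 5. Under TPM white fat over soleus had 10 and 0. Sh2b2, an adaptor that binds the insulin receptor and recruits CBL, was at 43.3, 36.5 and 42.1 FPKM in brown fat, 8.61, 10 and 8.69 FPKM in white fat, and 0.978, 0.798 and 0.823 FPKM in soleus, an order without overlap. It was higher in brown than in white fat by 2.04 ± 0.09 and higher in white fat than in soleus by 2.44 ± 0.09 (limma adjusted p = 8.5e-09 and 9.4e-10). Sh2b2, like Irs3, entered the test through the fat libraries alone. Crk, an adaptor that links phosphorylated tyrosines to small GTPases, had the highest mean of this list, at 30.8 FPKM in brown fat, 22.4 FPKM in white fat and 15.7 FPKM in soleus, and its difference of 0.44 between the fats was -0.13 under TPM. Shc1, which links receptors to the RAS route, averaged 13.1 FPKM in brown fat, 16 FPKM in white fat and 4.5 FPKM in soleus, and was higher in brown fat than in soleus by 1.36 (limma adjusted p = 9.3e-09). Gab2, a docking protein of immune and growth receptors, was lower in brown than in white fat (log2 difference -1.72; limma adjusted p = 1.5e-07), and averaged 2.45 FPKM in brown fat, 10.3 FPKM in white fat and 2.19 FPKM in soleus.

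The list of other PI3K subunits, 7 tested, includes the adaptor Pik3ap1. Of these genes, Pik3cg, Pik3r5 and Pik3ap1 reached 1 FPKM in white fat alone, so they were tested only through the tissue where they were high. Of the other 4, 3 had lower levels in brown fat (Pik3cb, Pik3cd and Pik3r6) and Pik3r3 was not called between the fats. Over all 7, brown fat over soleus had 1 higher, 3 lower and 3 not called. White fat over soleus had 5 higher and 0 lower by limma (1 lower at an unadjusted p under 0.05), with 4 and 1 under median of ratios scaling, and 3 of the 5 were the genes tested through white fat alone. Pik3cb was at 3.13, 3.22 and 3.24 FPKM in brown fat, 10.1, 7.69 and 9.35 FPKM in white fat, and 1.03, 0.942 and 1.27 FPKM in soleus, lower in brown than in white fat (log2 difference -1.25 ± 0.10; limma adjusted p = 6.7e-07). Pik3cd, a catalytic subunit of leukocytes, was lower in brown than in white fat (log2 difference -1.20; limma adjusted p = 1.8e-06). Pik3ap1, an adaptor of B cells and macrophages, averaged 0.305 FPKM in brown fat, 2.47 FPKM in white fat and 0.192 FPKM in soleus. White fat also held the higher macrophage marker sums given above, and their part in these differences was not tested.

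Of the 8 genes for the mTOR complexes, which carry AKT signalling to growth, 5 were higher and 1 lower in brown against white fat. Over all genes these shares were 38% and 34.8%, and under TPM the list had 2 and 2. Relative to soleus, brown fat had 6 higher and 1 lower (52.9% and 25.6% of all genes). White fat had 5 higher and 3 lower (54.5% and 29.7% of all genes). Under median of ratios scaling the counts against soleus were 5 and 2, and 2 and 4. Under TPM white fat over soleus had 5 and 1. Mtor, the kinase of both complexes, was at 24.4, 22.1 and 22.7 FPKM in brown fat, 5.62, 6.12 and 6.25 FPKM in white fat, and 4.06, 3.93 and 4.78 FPKM in soleus. It was higher in brown than in white fat by 1.78 ± 0.08 and than in soleus by 2.20 ± 0.08 (limma adjusted p = 1.1e-08 and 1.0e-09). Deptor, an inhibitor of mTOR, averaged 39.7 FPKM in brown fat, 16.3 FPKM in white fat and 2.06 FPKM in soleus, higher in brown than in white fat by 1.22 (limma adjusted p = 3.1e-06). Prr5, a component of the complex that phosphorylates AKT, went the other way between the fats, at 3.58 FPKM in brown fat, 15.9 FPKM in white fat and 1.94 FPKM in soleus, lower in brown than in white fat (log2 difference -1.87; limma adjusted p = 1.8e-07). Akt1s1, an AKT substrate within the mTOR complex, averaged 22.6 FPKM in brown fat, 16.2 FPKM in white fat and 38.4 FPKM in soleus, and its difference of 0.46 between the fats was -0.10 under TPM.

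The 22 tested inhibitors of the pathway split nearly evenly, with 8 higher and 7 lower between the fats, 8 higher and 7 lower for brown fat over soleus, and 11 higher and 8 lower for white fat over soleus. Over all genes these shares were 38% and 34.8%, 52.9% and 25.6%, and 54.5% and 29.7%. Under TPM the first split was 4 and 13 (18.1% and 61.9% of all genes). Under median of ratios scaling the others were 5 and 10, and 7 and 11 (36.6% and 40.4%, and 42.3% and 42% of all genes). Grb10 and Grb14 encode related adaptors that bind the active insulin receptor and block it. Grb10 was at 2.06, 2.02 and 2.05 FPKM in brown fat, 10, 11.2 and 8.64 FPKM in white fat, and 14.9, 14.9 and 20.3 FPKM in soleus, and was lower in brown than in white fat (log2 difference -1.84 ± 0.12; limma adjusted p = 1.8e-07). Grb14 was at 31, 30.8 and 40.5 FPKM in brown fat, 11.1, 8.18 and 11.8 FPKM in white fat, and 31.3, 41.6 and 37.6 FPKM in soleus, and was higher in brown than in white fat by 1.63 ± 0.15 (limma adjusted p = 3.2e-06). The 2 relatives thus differed in opposite directions between the fats, and both signs held under the 4 other scalings. Ptprf, a receptor tyrosine phosphatase, averaged 0.134 FPKM in brown fat, 4.73 FPKM in white fat and 0.296 FPKM in soleus. Inpp4b, a lipid phosphatase that removes a PI3K product, averaged 0.462 FPKM in brown fat, 0.521 FPKM in white fat and 13.1 FPKM in soleus. Ptprf reached 1 FPKM in white fat alone and Inpp4b in soleus alone, so each was tested only through the tissue where it was high, and their values stand as a description. In the comparison of the fats, 3 of the 7 lower inhibitors entered in this way.

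**Figure D5:**
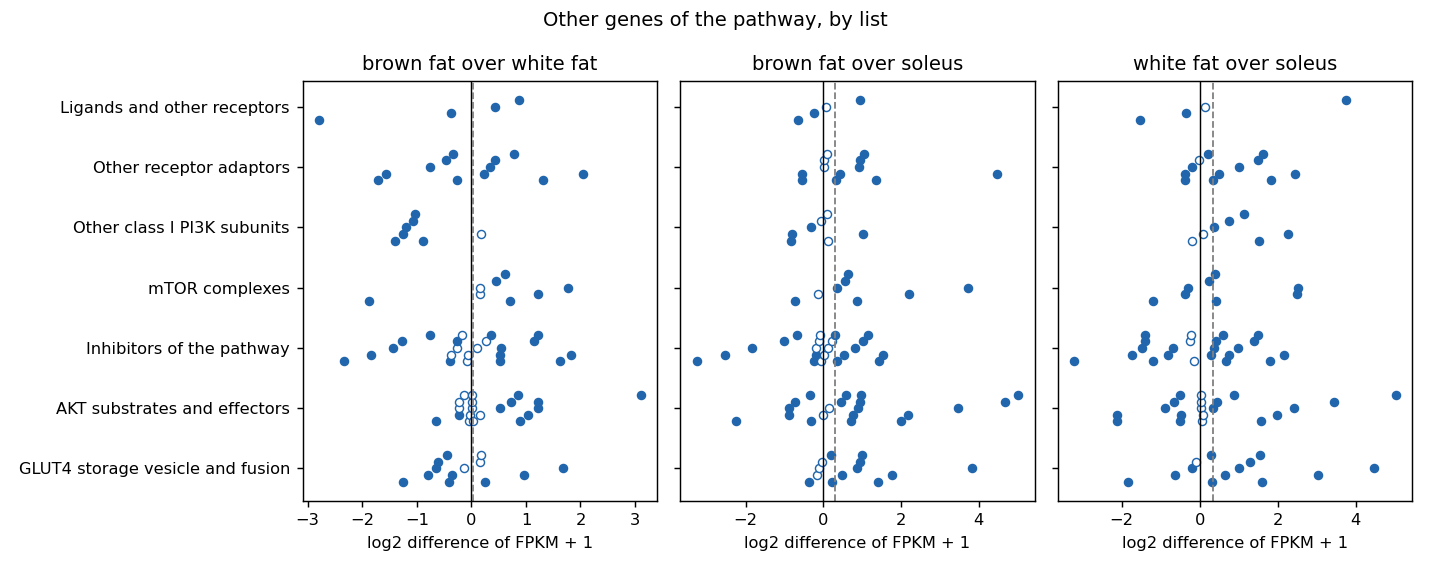
Log2 difference of FPKM + 1 of the 86 tested pathway genes beside the 9, by list, with brown fat over white fat at left, brown fat over soleus in the middle and white fat over soleus at right. Each point is a gene, filled where the adjusted p was under 0.05, and the dashed line is the median of all tested genes. Most genes in the list of other PI3K subunits, which includes the adaptor Pik3ap1, lie to the left in the comparison of the fats. But 3 of these 7 genes reached 1 FPKM in white fat alone, so that the filter fixed their direction.

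AKT substrates and effectors, 20 tested, were higher in 8 cases and lower in 2 in brown against white fat (38% and 34.8% of all genes). Under TPM these were 6 and 9. Relative to soleus, 12 were higher and 6 lower in brown fat (52.9% and 25.6% of all genes), with 10 and 8 under median of ratios scaling. White fat had 8 higher and 7 lower (54.5% and 29.7% of all genes), with 13 and 3 under TPM and 6 and 12 under median of ratios scaling. Gys2, the glycogen synthase known from liver, was at 32.2, 26.2 and 25.3 FPKM in brown fat, 2.32, 4.15 and 1.19 FPKM in white fat, and 0.261, 0.0763 and 0.0374 FPKM in soleus. It was higher in brown than in white fat by 3.10 ± 0.25 (limma adjusted p = 7.6e-07). Pde3b, the phosphodiesterase through which insulin restrains lipolysis, averaged 66 ± 4.55 FPKM in brown fat, 66.9 ± 4.38 FPKM in white fat and 1.15 ± 0.778 FPKM in soleus (SD, n = 3 each). It was higher than in soleus by 5.02 in brown fat and 5.04 in white fat (limma adjusted p = 1.8e-09 and 1.7e-09). Srebf1, a driver of lipid synthesis, averaged 67 FPKM in brown fat, 65.2 FPKM in white fat and 5.13 FPKM in soleus. Gsk3a, a glycogen synthase kinase that AKT inhibits, averaged 42.8 FPKM in brown fat, 17.7 FPKM in white fat and 25.7 FPKM in soleus and was higher in brown than in white fat by 1.22 (limma adjusted p = 2.8e-07). Eif4ebp1, a brake on translation below mTOR, had the highest mean of this list, at 344 FPKM in brown fat, 405 FPKM in white fat and 75 FPKM in soleus.

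The GLUT4 storage vesicle genes, 13 tested, gave 3 higher and 7 lower in brown against white fat (38% and 34.8% of all genes). Under TPM these were 2 and 11. Against soleus, 9 were higher and 1 lower in brown fat (52.9% and 25.6% of all genes). White fat had 9 higher and 3 lower (54.5% and 29.7% of all genes). Under median of ratios scaling the counts against soleus were 6 and 5, and 7 and 4. Under TPM white fat over soleus had 11 and 1. Slc2a4, the gene of GLUT4 itself, was at 144, 142 and 147 FPKM in brown fat, 45.5, 48.4 and 39.1 FPKM in white fat, and 152, 165 and 161 FPKM in soleus. Brown fat lay close below soleus and far above white fat. It was higher in brown than in white fat by 1.68 ± 0.09 on the log2 scale (limma adjusted p = 3.6e-08), and white fat over soleus was -1.83 ± 0.09 (limma adjusted p = 8.7e-09), while brown fat over soleus was -0.15 ± 0.09 (limma adjusted p = 0.16). That last difference leaned on the scaling, and the libraries of brown fat and soleus did not overlap. It passed under upper quartile, median of ratios and quantile scaling, at -0.49, -0.59 and -0.30 (limma adjusted p = 3.5e-04, 1e-04 and 0.0059). Under TPM it was -0.18 (limma adjusted p = 0.086). Sort1 and Lrp1, which encode cargo proteins of the GLUT4 vesicle, did not follow Slc2a4. Sort1 averaged 43.6 FPKM in brown fat, 68.7 FPKM in white fat and 2.17 FPKM in soleus, and Lrp1 averaged 19.5, 48.2 and 5.11. Both had lower levels in brown fat than in white fat, with log2 differences of -0.65 and -1.26 (limma adjusted p = 8.5e-04 and 1.8e-06).

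For each of the 9 genes, the 3 tested genes with the most similar profile over the 9 libraries were sought, by the root mean square difference of log2(FPKM + 1) after each profile was centred on its own mean. Pdpk1 had the closest neighbours, Usp54, Zfp263 and Ascc3, at 0.04, 0.05 and 0.05. Insr was nearest to Zfp790, Rere and Zeb1, all at 0.07, Irs1 to Tmem131 at 0.06, Akt1 to Mthfd1 at 0.08 and Pik3ca to Nrd1 at 0.09. Akt2 was nearest to Tusc1, Hmgn5 and Ogfod2, at 0.11, 0.12 and 0.12. Pik3r1 was nearest to Fam83a, Rps6ka3 and Casp8, at 0.20, 0.22 and 0.23. Irs3 was nearest to Asns, Acss3 and Pgd, at 0.26, 0.28 and 0.29, all far higher in fat than in soleus. Irs2 had no close neighbour, with Anks1, Id1 and Zc3h12a at 0.39, 0.41 and 0.42.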

How the data were processed

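RNA was extracted with TRIzol and sequenced from Illumina TruSeq version 2 libraries, per the labels' protocols. TopHat 1.4.1, Cufflinks 2.0.1 and the build mm9 are named in the submitters' processing notes. The authors deposited FPKM values in a matrix of 18401 rows named by RefSeq accessions, and 0 sample columns were left unused. A RefSeq gene table gave symbols to 18305 rows, and GENCODE gave them to 38 more. Rows with no symbol (55) or several (3) were left out, and rows that share a symbol were summed, giving 17753 genes. FPKM is relative to a library's mapped total, so abundant transcripts of a tissue depress the rest. Reads shared between near-identical copies may have been divided or dropped.

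All 9 libraries were fitted together in limma 3.58.1 (R 4.3.3) on log2(FPKM + 1), with a mean-variance trend, 6 residual degrees of freedom and a filter that kept the 9913 genes reaching 1 FPKM in 3 or more libraries. Tests were two-sided, adjusted by Benjamini-Hochberg over all tested genes and called at an adjusted p under 0.05. Differences on this scale understate the change of genes with low values. The 5 ratios were tested by exact permutation of the libraries over the 3 tissues. Both procedures were tested on simulated data. Read totals were not given, and no counts were used. The 9 genes, the lists and the tests were chosen with earlier results of these data known. Of each list, the 2 called genes with the widest difference per comparison and the gene with the highest mean are named. Igf1r is named for its ratio to Insr, and Pik3r2 as not found in the matrix. Ins1, Ins2, Foxo1 and the single brown adipocyte markers were added after values were seen. Promoter windows come from a RefSeq table on GRCm38.p6, which gave 14 windows for 8 of the 9 genes. Same-numbered libraries of different tissues had deviations that correlated at -0.22 to 0.08, so the numbers were not taken to pair samples. Those of differently numbered libraries correlated at -0.19 to 0.36, and whether any of these share a mouse was not tested.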

Additional observations from a re-analysis of the deposited data

How the results depend on the processing

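The 27 results on single genes were recomputed under 21 alternatives, 567 values in all. Of these, 505 kept their direction and their side of the threshold. With the sign kept, 15 lost the call and 22 gained it, and 25 changed sign. A change of sign was counted only as such, also where the call was gained or lost. The number of the 9 genes called in brown against white fat was 6 under TPM, against 3 on the deposited values. Of all genes, 80% and 72.8% were called in these settings. TPM turned the sign of Insr to -0.14, Irs1 to -0.42, Irs3 to -0.04, Pdpk1 to -0.55 and Akt1 to -0.45 in brown over white fat, of Akt1 to -0.03 in brown fat over soleus, and of Irs1 to 0.35, Pik3ca to 0.30 and Akt1 to 0.42 in white fat over soleus. The median of all genes in these comparisons was -0.50, 0.32 and 0.93 under TPM, against 0.03, 0.29 and 0.35 as deposited. Upper quartile scaling gave -0.09 for Pdpk1 between the fats and -0.33 for Akt1 in brown fat over soleus. Quantile normalization gave -0.05 for Pdpk1 and -0.06 for Akt1 between the fats, -0.31 for Akt1 in brown fat over soleus and -0.0021 for Insr in white fat over soleus. Median of ratios scaling gave -0.43 for Akt1 in brown fat over soleus, and -0.17 for Insr and -0.04 for Irs2 in white fat over soleus. With a library left out, Pdpk1 between the fats ran from -0.04 to 0.08, Akt1 and Irs1 in brown fat over soleus from -0.11 to 0.11 and from -0.13 to 0.08, and Irs2 in white fat over soleus from -0.00021 to 0.83; the cause was not tested.

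With the replicate number as a block, the adjusted exact permutation p of the ratios was 0.069 for Akt2 to Akt1, 0.093 for Irs3 to Irs1, 0.069 for Pik3r1 to Pik3ca and 0.14 for Insr to Igf1r, where the 216 arrangements allow no raw p under 0.028. The block gave 4, 6 and 4 of the 9 genes called in the 3 comparisons, against 3, 6 and 5 without it. Of all 9913 tested genes the block called 3643 higher and 3374 lower, 5148 and 2480, and 5346 and 2906. No pairing by number was detected. The fit without brown fat replicate 1 called 3, 7 and 4 of the 9 genes. Of its 9784 tested genes it called 3461 higher and 3337 lower, 5005 and 2434, and 5373 and 2952. With a library left out, the adjusted exact permutation p of Insr to Igf1r ran from 0.018 to 0.054. Depth is known only as relative depth, which limits precision for genes near 0, such as Irs3 in soleus.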
